A study of Saccharomyces cerevisiae with 25 samples.

Results

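The genes described here encode the hexose-phosphorylating enzymes of budding yeast (Saccharomyces cerevisiae) and the regulators that carry the glucose signal to transcription. They were taken as the 10 named genes with a probe set of their own in the platform annotation, out of 5656 genes tested. The enzymes are HXK1 (YFR053C), HXK2 (YGL253W) and GLK1 (YCL040W). The repressors are MIG1 (YGL035C), MIG2 (YGL209W) and MIG3 (YER028C), the kinase and its phosphatase subunit are SNF1 (YDR477W) and REG1 (YDR028C), and the corepressors of hexose transporter genes are MTH1 (YDR277C) and STD1 (YOR047C). Each was read by 1 probe set, and no filter on low values was applied, so all 10 entered every comparison. A further probe set that GLK1 shares with another gene was not used.

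In yeast on ample glucose, the zinc-finger repressors Mig1 and Mig2 keep genes for other carbon sources off, and Hxk2, the main glucose kinase under these conditions, takes part in that repression as well as in glycolysis. When glucose runs low, the kinase Snf1, the yeast AMP-activated kinase, becomes active, phosphorylates Mig1 and switches on activators of respiratory metabolism. Reg1 brings the phosphatase Glc7 to Snf1 and so keeps the kinase off on glucose. In a parallel branch, Mth1 and Std1 work with the repressor Rgt1 on hexose transporter genes and are destroyed when the sensors Snf3 and Rgt2 detect glucose.

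The strains were a wild type and null mutants of subunits of Ccr4-Not, a conserved complex that shortens poly(A) tails of messenger RNA and also acts in transcription and protein ubiquitylation. All cultures were started in glucose-rich medium. Exponentially growing cells were collected from wild type, caf1, ccr4, not2, not3 and the strain labelled caf130 with 2 arrays each, and from not4 and not5 with 1 array each. Cells taken 30 min after the glucose had run out came from wild type, ccr4, not2, not4 and the strain labelled caf130 with 2 arrays each, and from caf1 with 1 array. The submitters state that duplicate samples were prepared independently and that an array each of not4 and not5 in exponential phase and of caf1 after depletion was set aside as faulty. Strain background, mating type and the construction of the deletions are not given in the labels. Which of the Ccr4-Not subunits shift these transcripts on glucose, and after its depletion, is the question that the design puts.

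Total RNA of each culture was hybridised to 1 Affymetrix array, and expression values are on a log2 scale whose base was inferred from the values. The array medians lay between 5.20 and 5.37. MIG3 and REG1 were dim, below the array median on 20 of 25 arrays, and MIG1 was below it on 10. The transcript of the deleted gene was lower than in wild type in 6 of the 7 deletion strains, by -5.02 to -1.78 on the log2 scale. It was not in the strain labelled caf130, where CAF130 read 5.92 and 6.60 in exponential phase against 5.60 and 5.30 in wild type, a log2 difference of 0.81 (adjusted p = 0.218). TRP1, a common marker gene, read 3.59 and 5.52 on the exponential arrays labelled caf130 and 7.27 and 7.69 on those after depletion, against 2.09 to 3.14 in wild type, not2, not3, not4 and not5, so what these 4 arrays hold is not settled. It was also high in caf1 (7.88 to 8.88) and ccr4 (6.73 to 7.94). Where in the gene the CAF130 probes lie was not examined. Because a culture is measured as a whole, a change in part of the cells and a change in all of them cannot be told apart.

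HXK1 was measured at 6.64 and 9.62 on the wild-type exponential arrays, a gap of 2.98 on the log2 scale between preparations of the same group. MTH1 differed by 1.74 between them, at 5.26 and 7.0. The median gap of all genes between these arrays was 0.241, and only 0.053% of genes differed as much as HXK1 and 0.424% as much as MTH1. Gaps of GLK1 (0.804), MIG3 (0.67), STD1 (0.65) and REG1 (0.324) were also above that median. Those of HXK2, MIG1, MIG2 and SNF1 were below it. Every comparison with wild type on glucose leans on these arrays.

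In wild type, depletion of glucose moved genes of the same role in opposite directions: HXK2 fell while HXK1 and GLK1 rose among the kinases, and STD1 fell while MTH1 rose among the corepressors. The calls of GLK1, MTH1 and STD1 depended on wild-type exponential replicate 1. Without it, their log2 changes were 0.90, 1.15 and -0.95. In wild type 3 of the 10 rose and 2 fell, in a comparison where 39.0% of all genes tested were called at an adjusted p under 0.05. The counts were 2 rising and 2 falling in caf1 (30.4% of all genes), 3 and 3 in ccr4 (37.0%), 3 and 4 in not2 (44.7%), 4 and 2 in not4 (31.1%) and 3 and 4 in the strain labelled caf130 (50.1%). Over these 6 comparisons, 35 of 60 tests were called (58.3%, against 38.7% over all genes), 18 higher and 17 lower. Of these calls, 7 are from the arrays labelled caf130. TRP1 differed between their conditions, so whether both conditions under that label hold the same strain is not settled.

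Differences between a deletion strain and wild type were fewer. In exponential phase, 3 of the 10 were higher and 1 lower in not2, where 22.6% of all genes were called. In ccr4, 1 was higher and 1 lower (6.77% of all genes), in caf1 1 was higher (4.46%), in not3 1 was higher (3.06%) and in not5 1 was lower (5.23%). None was called in not4 (8.22% of all genes) by limma, with 1 at an unadjusted p under 0.05, and none in the strain labelled caf130 (0.672%), with 2 at an unadjusted p under 0.05. Together 9 of 70 tests were called (12.9%, against 7.28% over all genes), 6 higher and 3 lower. After quantile normalization the counts were 3 and 3, given without the share of all genes in that fit.

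After depletion, 2 of the 10 were higher and 1 lower in not2 (28.0% of all genes called), 1 was lower in ccr4 (27.1%) and 1 was higher in caf1 (13.4%). None was called by limma in not4 (12.1% of all genes), with 2 at an unadjusted p under 0.05, or in the strain labelled caf130 (0.0354%), with 1. A test of the depletion response against the wild-type response called 3 of the 10 in ccr4, 2 more positive and 1 more negative, where 19.4% of all genes were called. It called none in caf1 (2.37% of all genes, 2 of the 10 at an unadjusted p under 0.05), in not2 (6.93%, 4 at an unadjusted p under 0.05), in not4 (4.17%, 2) or in the strain labelled caf130 (0.0354%, 1).

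**Figure D1:**
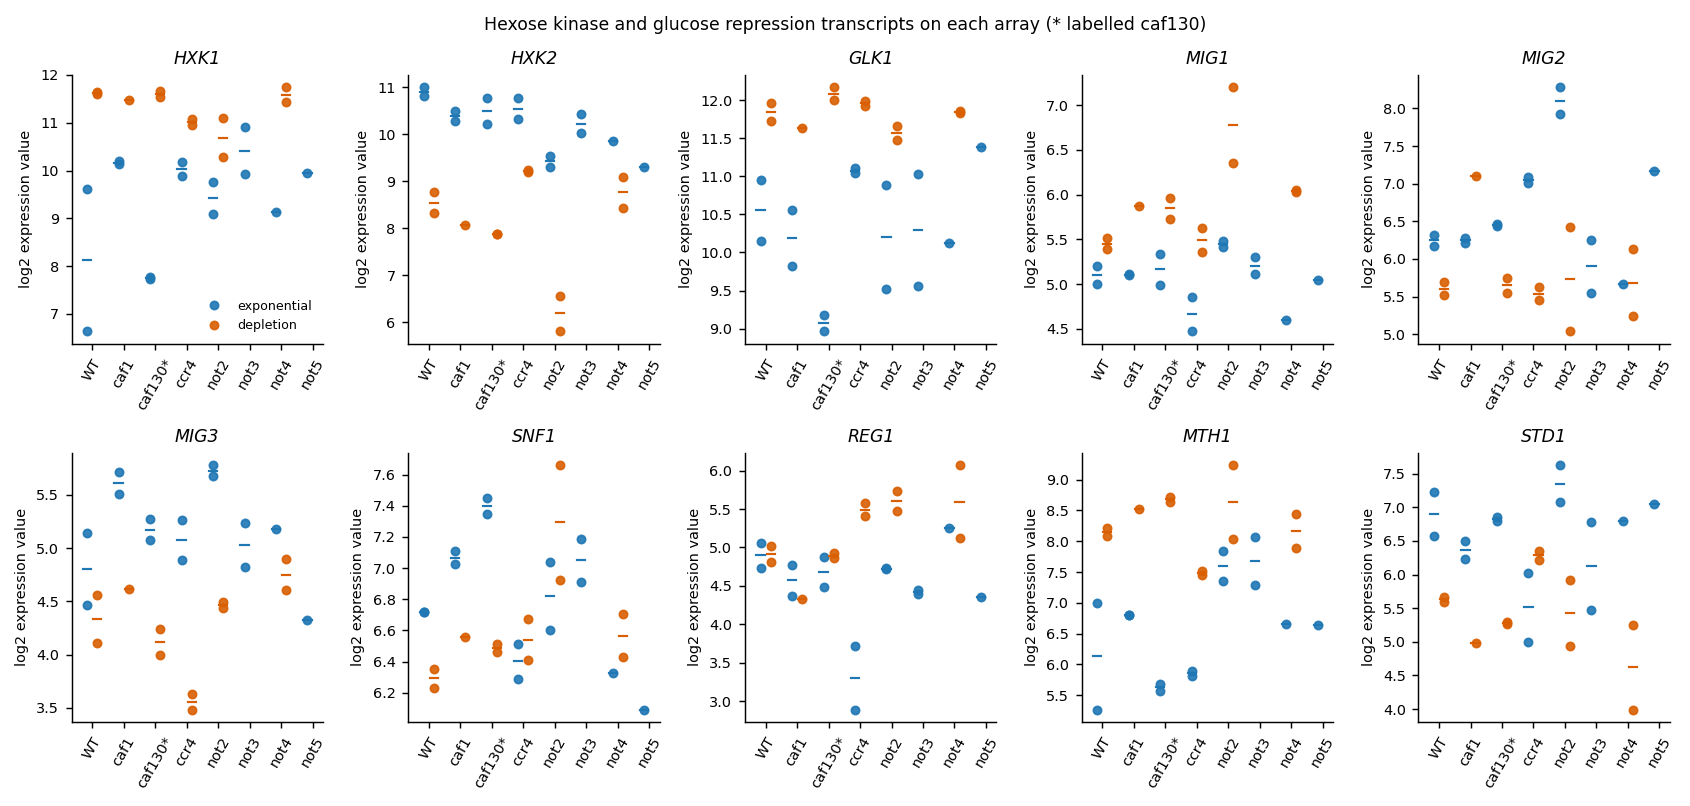
Log2 expression value (vertical axis, its own range in each panel) of each of the 10 genes on every array, by strain (horizontal axis; WT, wild type; the asterisk marks the strain labelled caf130), with exponential cultures in blue, cultures 30 min after glucose depletion in orange and group means as bars. HXK2 lies lower and GLK1 higher after depletion than on any exponential array, and the wild-type exponential points of HXK1 lie 2.98 apart.

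HXK2 encodes hexokinase PII, the main glucose kinase of growth on glucose. It read 11.01 and 10.80 on the wild-type exponential arrays and 8.32 and 8.77 after depletion. Over all strains, the 14 exponential arrays ran from 9.30 to 11.01 and the 11 depletion arrays from 5.80 to 9.24. No array of one condition reached into the range of the other, though the ranges lie close, at 9.24 and 9.30. The share of all genes with such a separation is not given here.

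The fall of HXK2 was called in all 6 strains that were measured in both conditions, counting the arrays labelled caf130, whose identity is not settled. In wild type it fell by 2.36 on the log2 scale (SE 0.30, adjusted p = 3.96e-06), a 5.14-fold change if the base is as inferred. The fall was 3.24 in not2 (adjusted p = 9.19e-08), 2.61 in the strain labelled caf130, 2.31 in caf1 and 1.33 in ccr4 (adjusted p = 0.00224). In not4 it dropped by 1.09 (SE 0.37, adjusted p = 0.031), a call that was lost without not4 depletion replicate 1 (adjusted p = 0.145). None of the 5 differences from the wild-type response was called. For ccr4 that difference was 1.04 with a 95% interval of 0.14 to 1.93 (adjusted p = 0.0914), and for not4 it was 1.27 with an interval of 0.27 to 2.27 (adjusted p = 0.137).

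HXK2 was also the enzyme gene that differed from wild type in both conditions. In not2, it read 9.54 and 9.31 on glucose and 6.56 and 5.80 after depletion, and neither pair overlapped with wild type. The log2 difference was -1.48 in exponential phase (SE 0.30, adjusted p = 0.00216) and -2.36 after depletion (SE 0.30, adjusted p = 1.51e-05). Both calls were kept under every alternative setting run.

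The single not5 array read 9.30, and its log2 difference from wild type was -1.61 (SE 0.37, adjusted p = 0.0146; 0.104 without wild-type exponential replicate 1). The other 5 strains had lower HXK2 means than wild type in exponential phase too, with log2 differences of -1.05 (not4), -0.68 (not3), -0.52 (caf1), -0.42 (labelled caf130) and -0.36 (ccr4), none of them called. All of these share the same wild-type arrays. Ordered by mean, the depletion groups came first, from not2 at 6.18 to ccr4 at 9.22, and then the exponential groups up to wild type at 10.90. Of the 13 steps between neighbours in that order, 6 were larger than the pooled SD within groups of 0.304. The step from ccr4 after depletion (9.22) to not5 in exponential phase (9.30) was not among them.

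HXK1, encoding hexokinase PI, behaved otherwise. Its transcript is known to be repressed on glucose, and after depletion it lay between 10.28 and 11.75 on all 11 arrays. Wild type read 11.60 and 11.64 there, against 6.64 and 9.62 in exponential phase. Arrays of the strains caf1, ccr4, not2, not3, not4 and not5 lay between 9.10 and 10.92 in exponential phase, and those labelled caf130 read 7.73 and 7.77. The first wild-type array and the pair labelled caf130 were thus the lowest of the 25, and the second wild-type array lay within the range of the other deletion strains.

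The rise of HXK1 on depletion was 3.50 in wild type (SE 0.56, adjusted p = 5.13e-05), 3.85 in the strain labelled caf130 (adjusted p = 1.1e-05) and 2.46 in not4 (adjusted p = 0.0105). The wild-type rise was 2.01 without exponential replicate 1 and 4.98 without replicate 2, and it was called in both fits. The corresponding log2 differences in caf1 (1.30), not2 (1.26) and ccr4 (0.98) were not called, with adjusted p between 0.0753 and 0.177. In every HXK1 comparison, the fit uses a single spread shared by all groups. Most of it comes from the wild-type exponential pair, with an SD of 2.105, against 0.029 to 0.703 in the other pairs. The results for caf1, not2 and ccr4 therefore lean on a gap outside their own arrays. No exponential array of these strains reached their depletion arrays, but with at most 2 arrays in a group that is no test. Against the wild-type response, the ccr4 response was smaller by 2.51 (log2 difference -2.51, SE 0.80, adjusted p = 0.0327). That call was lost without any 1 of the 8 arrays of wild type and ccr4 other than wild-type exponential replicate 2, with adjusted p from 0.069 to 0.192, and also without the 4 arrays labelled caf130 (adjusted p = 0.0542). The difference itself was -1.03 without wild-type exponential replicate 1 and -4.0 without replicate 2.

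On glucose, HXK1 was called higher than wild type in not3 (log2 difference 2.29, adjusted p = 0.0331), caf1 (2.04, adjusted p = 0.0454) and ccr4 (1.91, adjusted p = 0.0447). They were lost in 3 (not3), 17 (caf1) and 18 (ccr4) of the alternative settings run, for caf1 and ccr4 also under quantile normalization (adjusted p = 0.0574 and 0.0623) and with a replicate block (0.0562 and 0.053). Without wild-type exponential replicate 1, the differences were 0.80 in not3 (adjusted p = 0.432), 0.55 in caf1 (adjusted p = 0.579) and 0.42 in ccr4 (adjusted p = 0.678). Without replicate 2 in its place, they were 3.78, 3.52 and 3.40, and HXK1 was then also called higher in not2 (2.79, adjusted p = 0.000145), not4 (2.49, adjusted p = 0.00521) and not5 (3.31, adjusted p = 0.000273). After depletion, no strain was called different from wild type, with log2 differences from -0.94 (not2) to -0.02 (labelled caf130). Only 1 of the 13 steps in the order of HXK1 means exceeded the pooled SD of 0.713, to which the wild-type pair contributes.

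**Figure D2:**
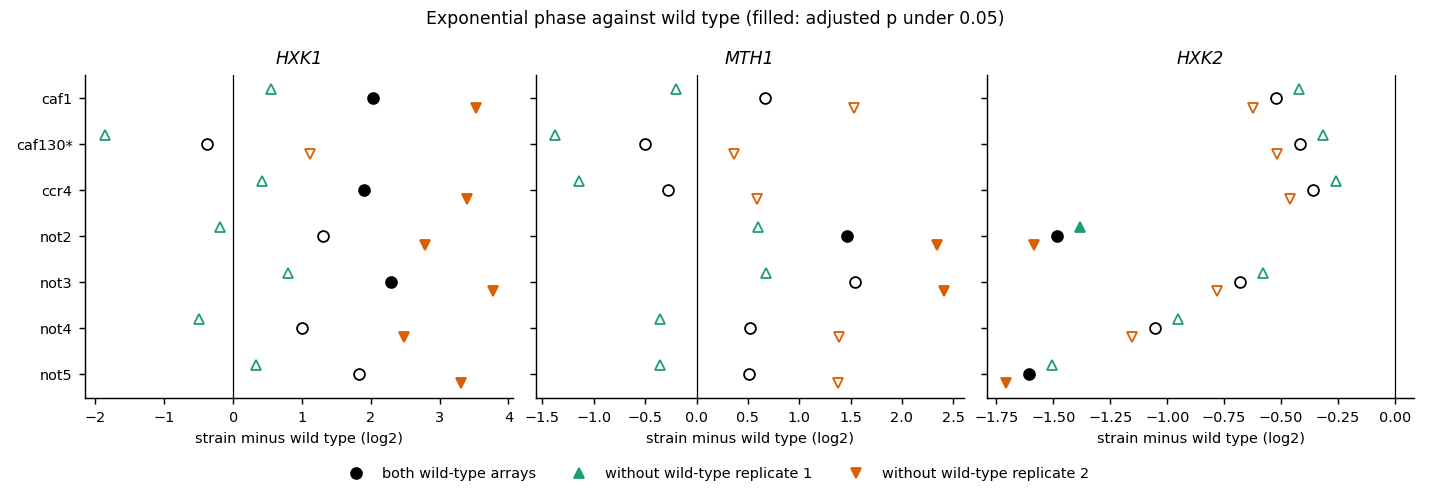
Log2 difference of each deletion strain from wild type in exponential phase (horizontal axis) for HXK1, MTH1 and HXK2, with both wild-type arrays (circles), without replicate 1 (upward triangles) and without replicate 2 (downward triangles), filled where the adjusted p was under 0.05. For HXK1 in not3, the value runs from 0.80 to 3.78 depending on the wild-type array kept, while for HXK2 in not2 it stays between -1.58 and -1.38.

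GLK1, the glucokinase gene, is another enzyme gene known to be glucose-repressed. Its exponential values ran from 8.96 on an array labelled caf130 to 11.39 in not5, and its depletion values from 11.48 in not2 to 12.18. The conditions did not overlap on any array, and for this too the share of all genes is not given. In wild type it went from 10.15 and 10.96 to 11.74 and 11.97.

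GLK1 rose in 5 of 6 strains, by 3.02 in the strain labelled caf130 (adjusted p = 4.76e-06), 1.73 in not4, 1.45 in caf1, 1.37 in not2 and 1.30 in wild type (SE 0.41, adjusted p = 0.0164). The wild-type call was lost without exponential replicate 1 (adjusted p = 0.196) or depletion replicate 2 (adjusted p = 0.10). Leaving out the second exponential array of caf1 or of not2 also ended the call there (1.08, adjusted p = 0.185, and 0.68, adjusted p = 0.245), as did omitting not2 depletion replicate 1 for not2 (0.0567) and the arrays labelled caf130 for caf1 (0.0547). In ccr4 the log2 difference was 0.88 (95% interval 0.03 to 1.74, adjusted p = 0.0971), from exponential values of 11.04 and 11.12. No difference from wild type was called for GLK1 in either condition. The farthest was -1.49, between the caf130-labelled and wild-type cultures on glucose (adjusted p = 0.105). EMI2, a further gene related to GLK1, was measured beside these and rose in all 6 strains, by 1.89 in ccr4 to 2.91 in not4.

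**Figure D3:**
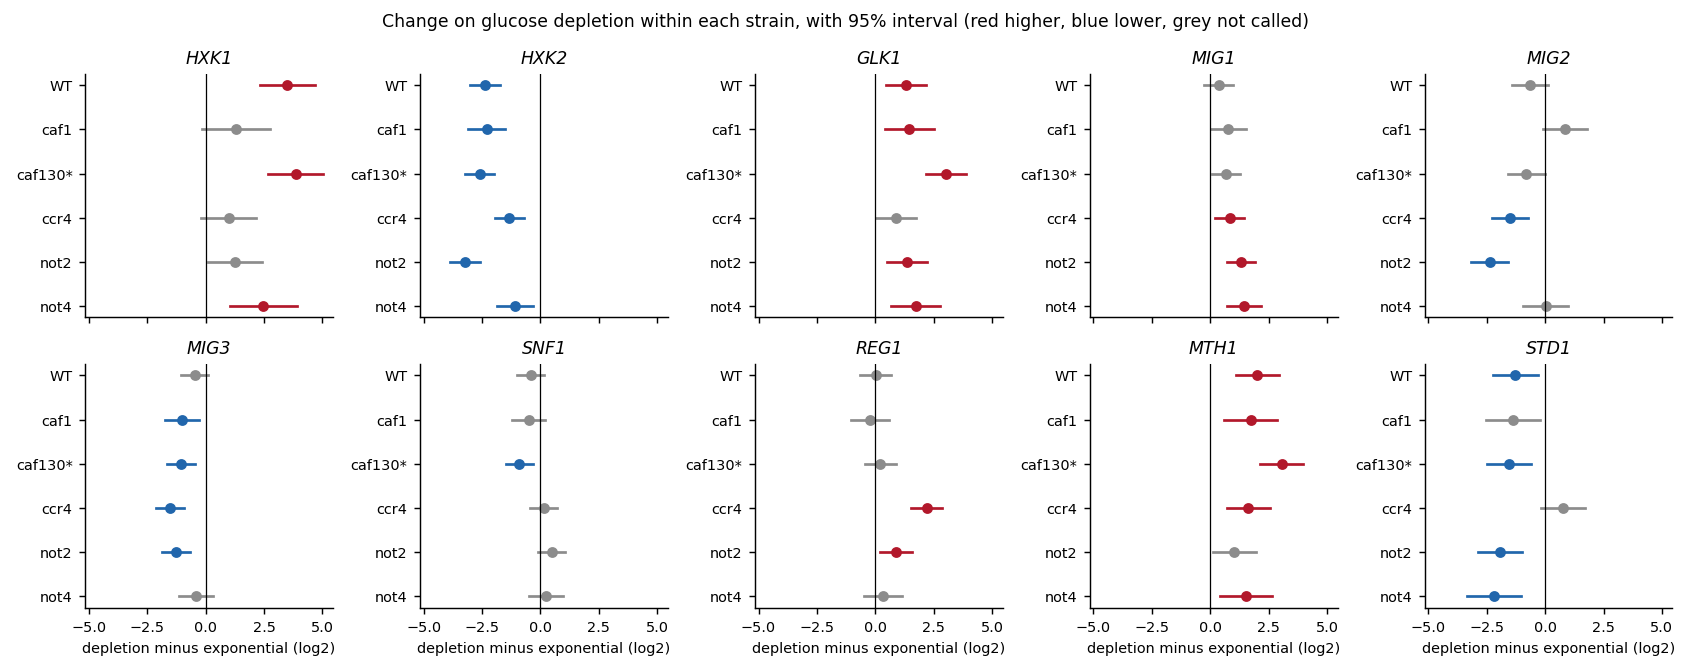
Log2 change from exponential phase to 30 min after glucose depletion (horizontal axis) for each of the 10 genes in the 6 strains measured in both conditions, with 95% intervals; red marks an adjusted p under 0.05 and higher, blue lower, grey not called, and the asterisk the strain labelled caf130. HXK2 lies below 0 in all 6 strains, from -3.24 in not2 to -1.09 in not4, and REG1 stands at 2.19 in ccr4 against 0.01 in wild type.

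Among the repressor genes, MIG1 differed from wild type in not2 after depletion. Its exponential values ran from 4.47 to 5.48, and no deletion strain was called different from wild type (5.0 and 5.20). After depletion, wild type read 5.40 and 5.51, whereas not2 read 6.35 and 7.20. The not2 arrays included the highest value of the 25.

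MIG1 was higher in not2 than in wild type after depletion by 1.32 (SE 0.29, adjusted p = 0.00208), a call kept under every alternative setting run. It rose on depletion in not4 by 1.45 (adjusted p = 0.00444), in not2 by 1.33 (adjusted p = 0.000829) and in ccr4 by 0.83 (adjusted p = 0.0304). The not4 rise rests on 1 exponential array, which read 4.60, so it could not be checked without that array. The ccr4 call was lost without ccr4 exponential replicate 1 (adjusted p = 0.212), without either depletion array (0.184 and 0.0742) or without the arrays labelled caf130 (0.0501). The wild-type change was 0.35 with a 95% interval of -0.25 to 0.96 (adjusted p = 0.361). No strain's response was called different from it, the nearest in size being 1.09 in not4 (adjusted p = 0.186) and 0.98 in not2 (adjusted p = 0.151).

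MIG2, encoding a repressor that shares targets with Mig1, was highest in not2 on glucose. There it read 8.29 and 7.92, above all other arrays, against 6.17 and 6.32 in wild type. The log2 difference was 1.86 (SE 0.37, adjusted p = 0.00188), kept under every alternative setting run. The ccr4 arrays (7.01 and 7.09) and the not5 array (7.17) also lay above both wild-type arrays, with log2 differences of 0.80 and 0.92 that were not called.

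After depletion MIG2 read 5.04 and 6.42 in not2, which spans the wild-type values of 5.69 and 5.52. Its fall was 2.37 in not2 (adjusted p = 3.46e-05) and 1.51 in ccr4 (adjusted p = 0.00397), and the wild-type change of -0.64 was not called. The not2 response was more negative than that of wild type by 1.73 (log2 difference -1.73, 95% interval -2.83 to -0.63), which missed the threshold at an adjusted p of 0.0528. The single caf1 array after depletion read 7.10, the highest of the 11, and was called above wild type (log2 difference 1.49, SE 0.46, adjusted p = 0.0374). It was lost in 9 of the alternative settings run, among them those without a wild-type depletion array (adjusted p = 0.083 and 0.178) and quantile normalization (adjusted p = 0.0648).

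MIG3, a related zinc-finger repressor gene, was dim. Its exponential values ran from 4.33 to 5.78 and its depletion values from 3.48 to 4.90. It fell on depletion in ccr4 by 1.52 (adjusted p = 0.000469), in not2 by 1.26 (adjusted p = 0.00112), in the strain labelled caf130 by 1.05 and in caf1 by 0.99 (adjusted p = 0.0356). The caf130-labelled and caf1 calls were each lost on leaving out an array of that strain, with adjusted p up to 0.0504 and 0.121. In wild type the log2 difference was -0.47 (adjusted p = 0.206), from 5.14 and 4.47 to 4.11 and 4.56, and these values overlapped.

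On glucose, MIG3 read 5.78 and 5.67 in not2, a log2 difference of 0.92 from wild type (adjusted p = 0.0254). That call was lost on omission of the second wild-type exponential array (log2 difference 0.59, adjusted p = 0.252) or of either not2 array (0.0867 and 0.0964). After depletion it read 3.48 and 3.63 in ccr4, the lowest values of the 25 arrays. The log2 difference from wild type was -0.78 (adjusted p = 0.0469), lost in 16 of the alternative settings run, with adjusted p up to 0.311 without wild-type depletion replicate 2.

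SNF1, which encodes the catalytic subunit of the kinase, varied least of the 10 genes, with values from 6.09 in not5 to 7.66 in not2 after depletion. Wild type read 6.72 on both exponential arrays and 6.36 and 6.23 after depletion. The log2 difference of -0.43 was not called (adjusted p = 0.247). A fall was called in the strain labelled caf130 alone (log2 difference -0.91, adjusted p = 0.0103), and it was lost without exponential replicate 2 or depletion replicate 1 of that label (adjusted p = 0.061 and 0.0605).

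After depletion SNF1 read 6.92 and 7.66 in not2, above both wild-type arrays. The log2 difference of 1.0 was called (SE 0.28, adjusted p = 0.0112), and it was lost without not2 depletion replicate 2 (log2 difference 0.63, adjusted p = 0.118) or wild-type depletion replicate 2 (0.0858). In exponential phase the strains differed from wild type by -0.63 (not5) to 0.68 (labelled caf130), none of them called.

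REG1, encoding the subunit that directs Glc7 phosphatase to Snf1, stood apart in ccr4. On glucose the ccr4 arrays read 2.89 and 3.71, the lowest values of the 25 arrays and both below the lowest of the rest, 4.33. Wild type read 4.74 and 5.06 there. After depletion ccr4 read 5.41 and 5.58, above the wild-type values of 4.81 and 5.02.

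The log2 difference of ccr4 from wild type on glucose was -1.60 (SE 0.32, adjusted p = 0.00446). Omitting the first exponential array of ccr4 (adjusted p = 0.148) or the second of wild type (0.0684) ended the call. On depletion REG1 rose in ccr4 by 2.19 (SE 0.32, adjusted p = 4.94e-05), while the wild-type difference was 0.01 with a 95% interval of -0.66 to 0.68. The ccr4 response exceeded that of wild type by 2.18 (SE 0.46, adjusted p = 0.00336), and this call was kept under every alternative setting run, with adjusted p up to 0.028. REG1 was dim, and both ccr4 values on glucose lay below the lower quartile of their arrays, 3.85 and 3.74. The files used give no detection calls, so how much of these readings is signal is not known, and the sizes of the ccr4 differences that rest on them are uncertain.

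In not2, REG1 read 4.72 and 4.73 on glucose and 5.74 and 5.47 after depletion, a rise of 0.88 (adjusted p = 0.0317). The call was lost without either exponential array (adjusted p = 0.0923 and 0.0985) or depletion replicate 1 (0.134). The not4 depletion arrays included the highest REG1 value, 6.07, beside 5.12, with a log2 difference from wild type of 0.69 that was not called (adjusted p = 0.186). The order of REG1 means started with ccr4 in exponential phase at 3.30, and the step from there to the next, caf1 after depletion at 4.33, exceeded the pooled SD of 0.314. Among the 12 further steps, only 1 did.

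**Figure D4:**
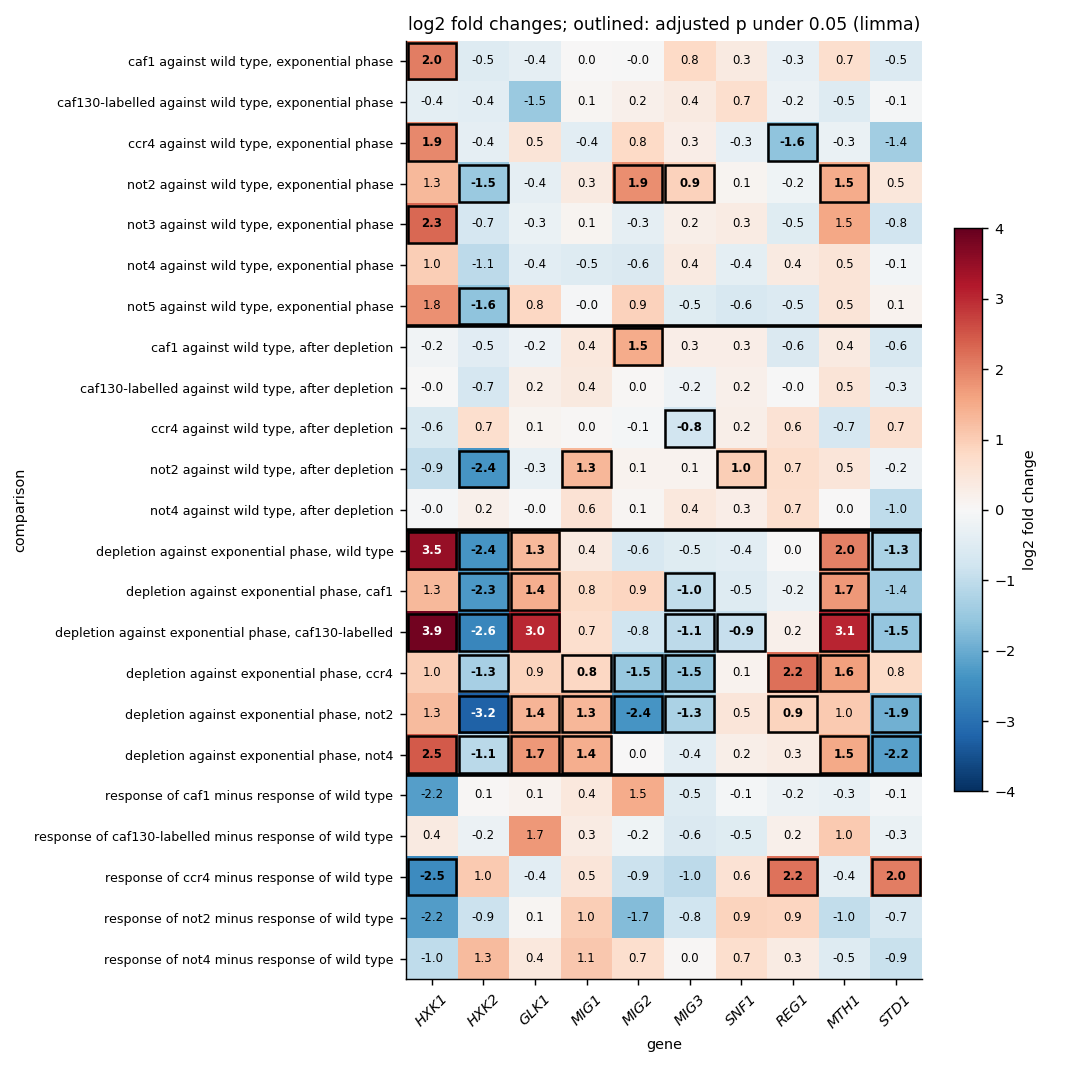
Log2 fold changes of the 10 genes (columns) in the 23 comparisons (rows: each deletion strain against wild type in exponential phase, the same after depletion, depletion against exponential phase within a strain, and the difference of that response from wild type), outlined where the adjusted p was under 0.05. Outlined cells number 9, 5, 35 and 3 in the 4 blocks from top to bottom. These are 12.9%, 10%, 58.3% and 6% of the tests, against 7.28%, 16.1%, 38.7% and 6.57% over all genes. REG1 in ccr4 shows -1.60 on glucose and 2.19 on depletion.

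MTH1, the gene of a corepressor that acts with Rgt1, is itself known to be glucose-repressed. It read 5.26 and 7.0 on the wild-type exponential arrays and 8.21 and 8.09 after depletion. The not2 arrays (7.36 and 7.85) and the not3 arrays (7.28 and 8.07) were the highest on glucose. These overlapped with the lowest depletion values, 7.45 and 7.52 in ccr4.

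MTH1 rose on depletion by 3.05 in the strain labelled caf130 (adjusted p = 8.8e-06), 2.02 in wild type (SE 0.44, adjusted p = 0.00099), 1.73 in caf1 (adjusted p = 0.0193), 1.63 in ccr4 (adjusted p = 0.00675) and 1.51 in not4 (adjusted p = 0.0368). In not2 the log2 difference was 1.03 (adjusted p = 0.0608). The wild-type rise was 1.15 without exponential replicate 1, where the call was lost (adjusted p = 0.0561), and 2.89 without replicate 2. The caf1 call was lost without either of its exponential arrays (0.0527 and 0.0569), and the not4 call without depletion replicate 1 (0.126) or without the arrays labelled caf130 (0.0586). No response was called different from that of wild type, with log2 differences from -0.99 in not2 to 1.03 in the strain labelled caf130.

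On glucose MTH1 was higher in not2 than in wild type by 1.47 (SE 0.44, adjusted p = 0.0213), and in not3 the difference of 1.54 missed the threshold (adjusted p = 0.055). Without wild-type exponential replicate 1, these differences were 0.60 (adjusted p = 0.406) and 0.68 (adjusted p = 0.577). Without replicate 2 in its place, they were 2.34 (adjusted p = 0.00201) and 2.41 (adjusted p = 0.00605), and both were called. Leaving out not2 exponential replicate 2 also ended the not2 call (adjusted p = 0.163). After depletion no strain was called different from wild type, the values running from -0.66 in ccr4 to 0.53 in the strain labelled caf130.

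STD1, the paralogue of MTH1, was lower after depletion in most strains. It read 7.23 and 6.58 in wild type on glucose and 5.59 and 5.67 after depletion. In ccr4 the order was turned, with 4.99 and 6.03 on glucose and 6.22 and 6.35 after depletion. The lowest value of the 25, 3.99, was a not4 array after depletion, whose partner read 5.25.

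STD1 fell by 2.17 in not4 (SE 0.56, adjusted p = 0.00608), 1.93 in not2 (adjusted p = 0.00166), 1.54 in the strain labelled caf130 (adjusted p = 0.00805) and 1.27 in wild type (SE 0.46, adjusted p = 0.032). The wild-type call was lost without exponential replicate 1 (adjusted p = 0.232), without either depletion array (0.122 and 0.101) or without the arrays labelled caf130 (0.0506). In caf1 the log2 difference was -1.37 (adjusted p = 0.0677), and in ccr4 it was 0.77 (95% interval -0.17 to 1.72, adjusted p = 0.188).

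The ccr4 response of STD1 differed from that of wild type by 2.05 (SE 0.64, adjusted p = 0.0316). This call was lost in 7 alternative settings, among them the fits without ccr4 exponential replicate 1 (adjusted p = 0.166) and without wild-type exponential replicate 1 (0.127). No deletion strain was called different from wild type within a condition. The farthest was ccr4 on glucose, at -1.39 (adjusted p = 0.073). None of the 13 steps in the order of STD1 means exceeded the pooled SD of 0.529.

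Of 37 further genes of the pathway, grouped by function, 36 were measured. In wild type, 16 of the 36 rose on depletion and 7 fell, where 39.0% of all genes were called, with a median log2 change of 0.49 against 0.02 over all genes. Without wild-type depletion replicate 2, 10 rose and 4 fell. The activators that depend on Snf1 rose in 4 of 5 cases, CAT8 by 3.88, ADR1 by 3.01, SIP4 by 2.29 and HAP4 by 1.86. CAT8 lay below the lower quartile of the array on both wild-type exponential arrays (2.55 and 3.0), as did SNF3, so the sizes of their changes are uncertain. CAT8 did so in ccr4 on glucose too. ADR1 did so on wild-type exponential replicate 1 (3.655) and RGT2 on replicate 2 (3.648), so the sizes of their changes are uncertain as well. Of the 7 targets of Mig1 and Mig2, 4 rose, among them the invertase gene SUC2 by 3.20 and the lactate permease gene JEN1 by 3.14. The transporter genes HXT2, HXT1 and HXT3 fell by 3.97, 3.05 and 2.46, and HXT4 rose by 1.19. Of 9 partners and regulators of Snf1, 3 rose (REG2 by 1.72, SIP2 and TOS3), and none fell. The glucose sensor genes SNF3 and RGT2 rose by 0.75 and 1.99, while YCK2, a kinase gene of the sensing pathway, and GRR1, a gene for the ubiquitin ligase subunit that acts on Mth1 and Std1, fell by 0.96 and 0.76. Among the 4 genes of corepressors and further repressors, NRG1 rose by 1.65 and CYC8 and TUP1 fell by 1.91 and 1.16.

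Other strains shared part of this change. The counts of the 36 rising and falling on depletion were 12 and 5 in caf1 (30.4% of all genes called), 19 and 6 in the strain labelled caf130 (50.1%), 12 and 6 in not2 (44.7%), 11 and 3 in not4 (31.1%) and 5 and 4 in ccr4 (37.0%). Counts near these shares are not a result about the pathway. Counts with an array left out are given without the share of all genes in that fit. A loss of calls there is therefore not a result about the pathway either. CAT8 and SUC2 rose, and HXT1, HXT2 and HXT3 fell, in each of the 6 strains. REG2, a paralogue of REG1, rose by 5.12 in not2 (SE 0.37, adjusted p = 3.93e-09), a response larger than that of wild type by 3.40 (SE 0.53, adjusted p = 0.000975). Its not2 values on glucose, 3.19 and 3.21, lay below the lower quartiles of those arrays, so both sizes are uncertain.

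In ccr4, CAT8 was the 1 activator of 5 that rose, by 2.02, and ADR1 (0.94), HAP4 (0.72), RDS2 (0.63) and SIP4 (-0.30) were not called. After depletion all 5 were lower in ccr4 than in wild type, SIP4 by a log2 difference of -1.91, CAT8 of -1.65, HAP4 of -1.61, RDS2 of -1.41 and ADR1 of -1.28. Between 3 and 5 of the 5 were called lower when 1 array of wild type or ccr4 was left out. JEN1 was lower by 2.29 (log2 difference -2.29, adjusted p = 0.00173), and HXT2 was higher by 2.04 (adjusted p = 0.00118). Of the 36 genes, 3 were higher and 9 lower in this comparison, where 27.1% of all genes were called, with a median of -0.38 against 0.06 over all genes. Leaving out 1 of the 4 depletion arrays of wild type and ccr4 left 1 to 2 higher and 4 to 6 lower.

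The difference of the ccr4 response from that of wild type was called for 8 of the 36, 1 more positive and 7 more negative, where 19.4% of all genes were called, beside HXK1, REG1 and STD1 among the 10. The 7 were JEN1 (-3.29), SIP4 (-2.60), HXT4 (-2.37), SUC2 (-2.08), ADR1 (-2.07), CAT8 (-1.85) and NRG1 (-1.45), and the corepressor gene CYC8 was at 2.06. Without wild-type exponential replicate 1, 3 were called more negative and none more positive. GLK1, HXK2 and MTH1 were not called in this comparison, with log2 differences of -0.42, 1.04 and -0.39.

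**Figure D5:**
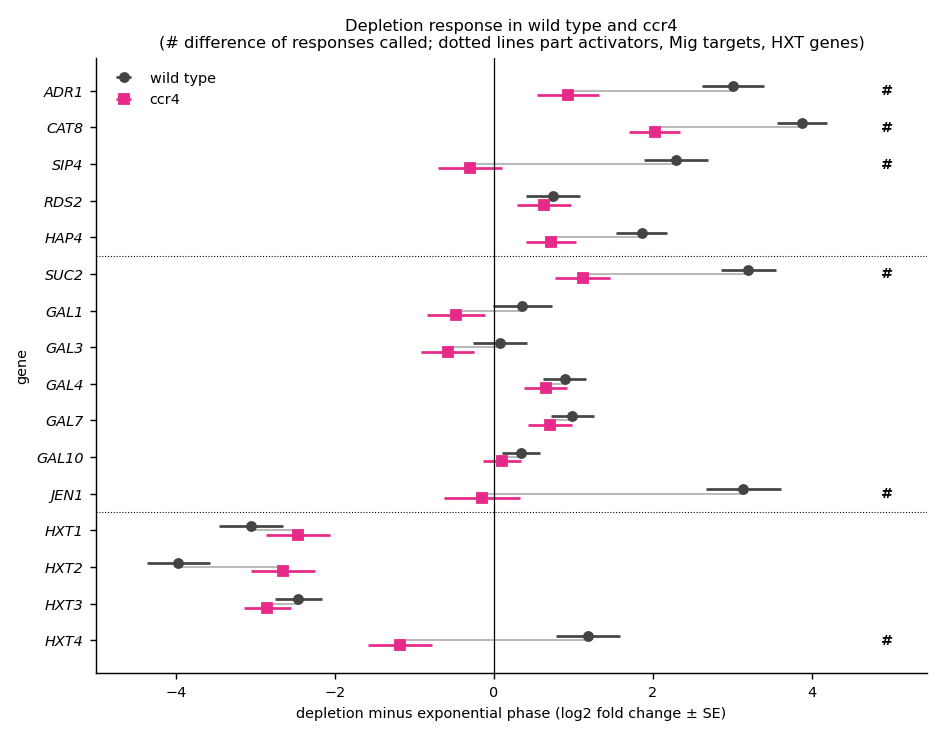
Log2 change on glucose depletion (horizontal axis, ± SE) in wild type (grey circles) and ccr4 (pink squares) for 16 genes (vertical axis) of the Snf1-dependent activators, the targets of Mig1 and Mig2 and the hexose transporter genes under Rgt1, parted by dotted lines; # marks a called difference between the responses. ADR1, CAT8, SIP4, SUC2, JEN1 and HXT4 carry the mark, and HXT1, HXT2 and HXT3 fell in both strains.

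In not2, where HXK2, MIG2, MIG3 and MTH1 differed from wild type on glucose, 6 of the 36 pathway genes were higher and 3 lower in exponential phase, where 22.6% of all genes were called. They included ADR1 (1.58), NRG1 (1.53), the Snf1-activating kinase genes TOS3 (1.28), SAK1 (1.12) and ELM1 (0.95), HXT2 (1.21), and on the lower side CYC8 (-1.63), HXT1 (-1.57) and SUC2 (-0.97). The size for ADR1 is uncertain, since it was below the lower quartile on a wild-type exponential array. Without wild-type exponential replicate 1, 2 were higher and 1 lower, and without replicate 2, 3 and 2. After depletion 7 were higher and 5 lower, where 28.0% of all genes were called. Higher were REG2 (2.56), HXT2 (2.08), the phosphatase gene GLC7 (1.65), GRR1 (1.57), SAK1 (1.46), CAT8 (1.24) and SNF3 (0.98), and lower RGT2 (-2.22), HXT4 (-1.41), NRG2 (-1.17), GAL7 (-1.05) and GAL10 (-0.93). RGT2, GAL7 and GAL10 read below the lower quartile on both not2 depletion arrays, at no more than 3.65, so the sizes of these differences are uncertain. Without wild-type depletion replicate 1, 6 were higher and 2 lower, and without replicate 2, 6 and 3.

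The remaining comparisons with wild type called few of the 36. On glucose, 4 were higher in caf1 (HXT4 by 2.36, TOS3, NRG2 and NRG1, with 4.46% of all genes called) and 4 in not5 (TOS3 by 2.71, JEN1, ADR1 and NRG1, with 5.23%). In ccr4 2 were higher and 2 lower (6.77% of all genes), in not3 2 and 1 (3.06%) and in not4 1 each way (8.22%), where HAP4 was lower (log2 difference -2.94). HXT4 was higher in not3 by 3.25, in ccr4 by 2.50 and in caf1 by 2.36, the 3 strains in which HXK1 was called higher. These comparisons share the wild-type arrays, so the calls are not independent of each other. CYC8 was the 1 gene called in the strain labelled caf130 (-1.89), where 0.672% of all genes were called. After depletion HXT2 was higher in caf1 (2.31), not4 (2.35), ccr4 and not2. It was the 1 gene of the 36 called in caf1 (13.4% of all genes). In not4 2 were higher and 1 lower (12.1%), and 0 of the 36 were called in the strain labelled caf130 (0.0354%).

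Genes with the most similar profile were sought over the 14 group means, which share arrays and the step between conditions with the gene they are compared with. HXK2 was closest to RPS14A, a ribosomal protein gene (r = 0.977), and GUA1 (r = 0.97), and these held within the 8 exponential groups (r = 0.819 and 0.855) and the 6 depletion groups (r = 0.977 and 0.942). HXK1 was closest to GPH1 (r = 0.929) and DDR2 (r = 0.929), and GLK1 to SDS24 (r = 0.957) and DDR2 (r = 0.943). The likeness to DDR2 within the 6 depletion groups was lower, at 0.131 for HXK1 and 0.327 for GLK1. MIG1 was closest to SDS22 (r = 0.955) and RIM11 (r = 0.945), MIG2 to YKL068W-A (r = 0.905) and ICT1 (r = 0.898) and MIG3 to SDL1 (r = 0.872) and SNR65 (r = 0.861). The nearest to REG1 were CLC1 (r = 0.90) and FIN1 (r = 0.885), to MTH1 RRT8 (r = 0.941) and MHO1 (r = 0.932) and to STD1 BUD21 (r = 0.94) and PNO1 (r = 0.933). SNF1 had the weakest match, with SBP1 at 0.808 and VMA8 at 0.791. Among the 10 genes, HXK2 ran most against MIG1 (r = -0.873 over 14 groups, -0.184 within the exponential groups and -0.875 within the depletion groups).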

How the data were processed

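Log2 values for every array came as a single table deposited by the authors. How it was computed and normalized is not given in the sources used here, and its log base was inferred from the range (1.36 to 13.94, 0 missing). Values were used as they stood. Of 9275 probe sets, 6504 carried 1 gene symbol (all matched to R64 by Entrez number), and the brightest set was taken for 315 genes with several, which left 5656 genes.

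All 25 arrays entered 1 limma fit (3.58.1, R 4.3.3) with a mean for each of 14 groups, taken from the sample titles, then eBayes with trend (residual df 11, prior df 9.03). Single-array groups borrow their spread from the others, and no comparison that uses such a group was run without its array. Each of 23 comparisons was corrected by Benjamini-Hochberg over all genes, with calls at 0.05. Precision is limited by the number of arrays. The procedure was tested on simulated data with independent errors, in which only the wild-type depletion group was changed. That simulation held no outlying array and no change in a single-array group.

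Named are the 10 genes, up to 4 called genes per pathway list, the 2 most similar genes of each of the 10, and the deleted genes with TRP1. Where a list is given whole, its further genes were named after their values were seen. The 10 genes and the lists were chosen with earlier results of these data known. Alternatives were quantile normalization, a filter at 3.65 (5437 genes left), averaged probe sets, no trend, a replicate block, single conditions, no caf130-labelled arrays and each array left out. Counts of pathway genes without doubted arrays were added after seeing the data.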

Additional observations from a re-analysis of the deposited data

Results flagged for a closer look

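The depletion response of the ccr4 strain differed from that of wild type, by a test of the difference itself, for 3 of the 10 genes, where 19.4% of all genes were called. REG1 had a log2 difference of 2.18, STD1 of 2.05 and HXK1 of -2.51. For REG1, adjusted p stayed at or under 0.028 in every alternative run. For HXK1 and STD1 the call was lost in 8 and 7 of the alternatives, among them the one without wild-type exponential replicate 1, where the HXK1 difference was -1.03 (adjusted p = 0.192) and adjusted p for STD1 was 0.127. Without wild-type exponential replicate 2, the HXK1 difference was -4.0. Both ccr4 values of REG1 on glucose lay below the lower quartile of their arrays, so the size of its difference is uncertain.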

How the results depend on the processing

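Of the 52 calls of these genes, 27 were kept in every alternative that applied to them (33 were run), 25 were lost in at least 1 and 0 reversed. Not every alternative was a test of these calls. Averaging probe sets left the values of these genes unchanged, because each was read by 1 probe set. Calls that use a group with 1 array, such as HXK2 in caf1 or HXK1 in not4 on depletion, were not tested without that array. For such calls, being kept does not show that they hold without it. Leaving out 1 array at a time gave 4 to 12 calls (9 with all arrays) for deletion strains against wild type on glucose, 2 to 6 (5) after depletion, 29 to 39 (35) for the depletion responses and 1 to 6 (3) for their differences from wild type. The 4 came without wild-type exponential replicate 1, and the 2 without wild-type depletion replicate 2. The 1 came without wild-type exponential replicate 1, ccr4 exponential replicate 1 or any depletion array of either strain, and the 6 without wild-type exponential replicate 2. Calls after depletion numbered 3 under quantile normalization and 3 without the arrays labelled caf130, which also left 1 difference of responses. Over 55 group pairs, same-numbered arrays had no common deviation (median r -0.016, over 0.1 in 14 pairs), so the numbers were not used as pairs. The r ran from -0.552 to 0.473, and this cannot tell whether some of the groups were paired. With a replicate block the counts were 7, 4, 35 and 3, and 3 calls were lost, HXK1 in caf1 and ccr4 on glucose and MIG3 in ccr4 after depletion. Quantile normalization moved the median of all genes by at most 0.067. Causes of the lost calls were not tested. MIG3 and REG1 are dim, which limits what their values resolve.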
